A study of Arvicanthis niloticus with 28 samples.

Results

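Genes of Müller glia and retinal astrocytes were followed in RNA from the washed retinal vasculature of Nile rats. The 10 members, Glul, Slc1a3, Rlbp1, Aqp4, Kcnj10, Gfap, Vim, Dkk3, Clu and Apoe, were chosen by name as genes known from these cells, and all of them stand among the 18970 genes of the expression tables. The photoreceptor genes Sag, Gnat1 and Prph2 served as the comparison for neuronal RNA. The question was whether glial RNA stayed on the vessels independently of neuronal RNA, and whether it differed with acellular capillary density or with blood glucose.

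The data came from 28 Nile rats (Arvicanthis niloticus, a rodent that can develop diabetes on a rich diet), labelled as WT and without treatment, with 1 library per rat from the whole retinal vasculature. Rats with 17.1 to 17.9 acellular capillaries per mm2 formed the pre-dropout group (n = 4, all male), and rats with 5.90 to 14.5 formed the normal group (n = 24, 16 female and 8 male). Random blood glucose lay between 52.0 and 443 mg/dL and exceeded 200 mg/dL in 5 rats, of which 3 were normal (T370M, T392F and T446M) and 2 pre-dropout (T389M and T391M). The animals were fed a high-fiber or a high-caloric diet, but the labels do not say which rat received which, nor do they give ages.

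Müller glia span the whole thickness of the retina and, with the astrocytes of the nerve fiber layer, wrap the blood vessels with endfeet. They clear glutamate and potassium, move water, recycle retinoids for the photoreceptors and help to maintain the blood-retinal barrier. In this preparation the retina was swollen in water, treated with DNase and rinsed with a pipette until the neurons came away, so any glial RNA in a library came from what the rinse left behind.

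Library totals ran from 153108 to 10029198 counts, and 2 libraries (T410F and T448M, both normal) held fewer than 1000000. The vessel label was borne out by the markers: Cldn5, a claudin that seals the junctions between endothelial cells, had a median of 27390 TPM (transcripts per 1000000, a level per transcript length), and Pecam1 and Cdh5, 2 further endothelial genes, had counts in all 28 rats. No member's level was related to log10 library total after adjustment over all tested genes, of which 0.297% were called positive and 0.109% negative. The strongest relation by r was that of Slc1a3 (r = 0.51, permutation p = 0.0055, adjusted p = 0.162, rho = 0.42 with permutation p = 0.0291, n = 28), and r fell to 0.33 without the 2 shallow libraries. By rank it was that of Clu, which fell with depth (rho = -0.44, permutation p = 0.0199, adjusted p = 0.126). The r of Clu was -0.38, and -0.48 without the 2 shallow libraries (permutation p = 0.015). Levels are shares of a library, so fewer cells of a type and less RNA per cell cannot be told apart.

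Glial RNA was present on the vessels of every rat. Of the 10 members, 9 had counts in all 28 libraries, and Kcnj10 had none in 4 normal rats. Together the 10 members held 0.511% to 1.69% of all TPM (median 1.08%), against 0.000764% to 0.1696% (median 0.0146%) for the 3 photoreceptor genes. In expected counts, which are not per length, the members held 0.42% to 1.355% (median 0.856%). The 3 photoreceptor genes held 0.00648% to 0.278% of counts (median 0.0349%). Summed over the list, the glial level (TMM-scaled CPM, counts per 1000000) varied 2.79-fold between the lowest and the highest rat and the photoreceptor level 45.5-fold. Apoe and Vim are the most abundant of the 10 and weigh most in the glial sum, so its range is not that of single members. In TPM, the 9 members with counts in all rats ranged from 2.68-fold (Clu) to 2160-fold (Gfap), with 44.2-fold for Slc1a3. Without Vim, Apoe, Clu and Gfap, the other 6 members held 0.0551% to 0.447% of all TPM (median 0.165%). Their part of the counts was 0.121% to 0.860% (median 0.3885%).

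Apoe, a lipid carrier, was the most abundant member per transcript length with a median of 5171 TPM. Vim, the intermediate filament vimentin, which endothelial and mural cells also carry, followed with 2928 TPM and was above Glul in 28 of 28 rats. Glul, the glutamine synthetase that serves as the classical Müller marker, stood at 594 TPM, Dkk3, a secreted glycoprotein of the Dickkopf family, at 516 and Clu, a secreted chaperone, at 275.5 TPM. Rlbp1, the retinaldehyde-binding protein CRALBP, had a median of 184 TPM, Slc1a3, the glutamate transporter GLAST, 141 and Aqp4, the water channel of the endfoot, 136 TPM. Gfap, the filament of astrocytes and of reactive Müller glia, and Kcnj10, the potassium channel Kir4.1, closed the order with 60.1 and 58.9 TPM.

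Some neighbours in this order were not clearly separated. Clu was above Rlbp1 in 17 of 28 rats, Slc1a3 above Aqp4 in 14 of 28, and Gfap above Kcnj10 in 12 of 28. Sag, the arrestin of rods, had a median of 77.6 TPM, Prph2, a disc rim protein, 43.7 and Gnat1, the rod transducin, 8.60 TPM. The TPM order leans on the lengths behind it. The counts behind 1 TPM were 8.003 times those of Glul for Gnat1, 0.182 times for Apoe and 0.0551 times for the endothelial Cldn5. On the scale of CPM, which is not per length, the medians were 144.5 for Gnat1, 106 for Sag and 47.7 for Prph2, against 1080 for Glul and 142 for Aqp4. The median of Cldn5 on that scale was 2785.

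**Figure D1:**
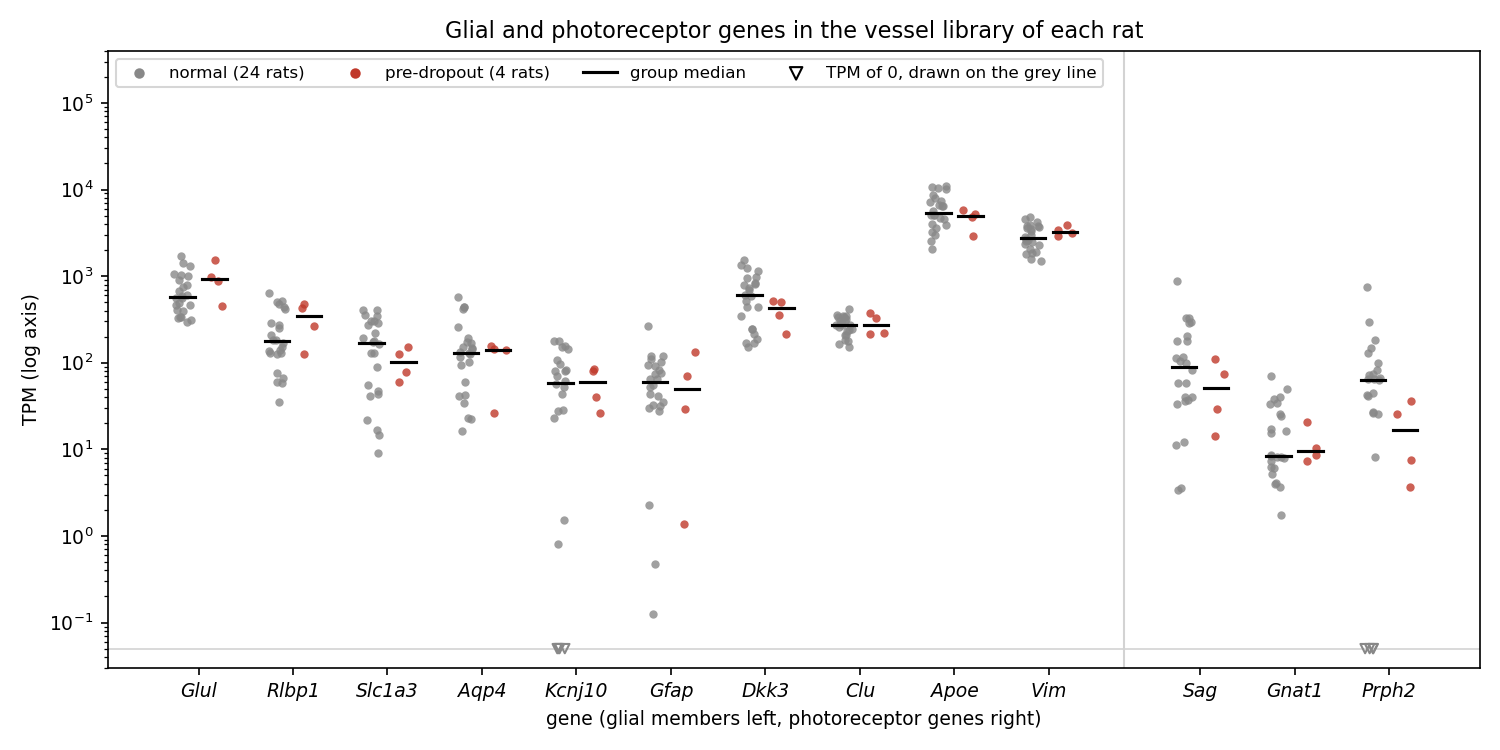
TPM (log axis) of the 10 glial members and the 3 photoreceptor genes in each rat, grey for the 24 normal and red for the 4 pre-dropout rats, with a black bar at each group's median and triangles on the grey line for a TPM of 0. Clu, Apoe and Vim form tight columns, Gfap and Kcnj10 trail down to 0.124 and 0 TPM, and the red points lie inside the grey range for all 10 members.

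The members fell apart in how much they varied between rats. The SD of log2 CPM over 28 rats was 0.39 for Clu, 0.55 for Vim, 0.59 for Apoe and 0.72 for Glul. It was 0.93 for Dkk3, 1.09 for Rlbp1, 1.30 for Aqp4 and 1.48 for Slc1a3, and 2.14 and 2.49 for Gfap and Kcnj10. The photoreceptor genes had SDs of 1.25 (Gnat1), 1.89 (Sag) and 2.87 (Prph2). In TPM, Slc1a3 differed 44.2-fold between T392F (9.15 TPM) and T401F (404.4 TPM), and Gfap 2160-fold between T424M (0.124 TPM, 1 count) and T348M (268.5 TPM).

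Near-absence of a member was seen in deep and in shallow libraries. T424M had the deepest library, yet it gave 0 counts of Kcnj10, which by counting error allows up to 3 counts or 0.299 CPM, and 1 count of Gfap beside 60.6 TPM of Aqp4. Kcnj10 was also at 0 in T396F, T410F and T448M and at 1 count in T392F and T411M. The 2 libraries under 1000000 counts were thus among those at 0, while T396F held 2670006 counts. In T410F a count of 0 allows up to 19.6 CPM, against a Kcnj10 median of 26.3 CPM, so near-absence cannot be read there. The limit in T448M was 3.21 CPM.

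Pre-dropout and normal rats were compared first. No member passed the test (edgeR quasi-likelihood, adjusted p under 0.05 and more than 2-fold), and neither did any other gene: 0 of 13800 were called (0.0%). At an unadjusted p under 0.05 there were 394 genes, 2.86% of those tested, and none of them was a member. DESeq2 called 5 genes and limma 0, again with 0 members. Every adjusted p of a member was 0.9999. The median log2 fold change was -0.14 over the 10 members and -0.13 over all tested genes, and 4 of the 10 lay above 0.

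Among the genes of glutamate and retinoid handling, Glul had 451 TPM in T353M, 871 in T389M, 1520 in T391M and 965.5 in T407M, all pre-dropout. Over the normal rats it ran from 293 through a median of 574 to 1713 TPM. All 4 pre-dropout values lay within the normal range, with 3 of them above the normal median, and the log2 fold change was 0.56 (SE 0.34). Rlbp1 followed the same order, with 126 TPM in T353M, 265 in T389M, 472 in T391M and 427 in T407M against 35.1, 176 and 644 TPM for the lowest, median and highest normal rat. Its log2 fold change was 0.58 (SE 0.46). Slc1a3 pointed the other way: 77.7, 59.1, 151 and 128 TPM in T353M, T389M, T391M and T407M all lay below the normal median of 168.5 TPM, inside a normal range of 9.15 to 404.4 TPM (log2 fold change -0.61, SE 0.61).

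The pre-dropout rats were all male, so sex and density overlap. With the 8 normal males as the only controls, the log2 fold change was 0.98 for Rlbp1 and 0.70 for Glul, and edgeR's adjusted p stayed at 1.0 for both. In that edgeR fit 1 member, higher in pre-dropout rats, had an unadjusted p under 0.05, beside 3.96% of all genes. There were 2 such members, both higher, with the photoreceptor index as covariate (4.07% of all genes), and 0 with sex as covariate (4.36%). Across the fits that left out 1 pre-dropout rat, Rlbp1 ranged from 0.33 without T407M to 0.91 without T353M and Glul from 0.28 without T391M to 0.84 without T353M. T353M thus held the lowest pre-dropout level of both genes.

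The endfoot channels spread widely within the pre-dropout group. Aqp4 had 140.1, 143 and 155 TPM in T353M, T391M and T407M but 26.6 TPM in T389M, the rat with the highest glucose of all. Normal rats had from 16.3 through 131 to 573 TPM. The fitted log2 fold change was -0.42 (SE 0.59), although the pre-dropout median of 142 TPM was above the normal one. Kcnj10 stood at 85.6 TPM in T353M, 26.3 in T389M, 40.3 in T391M and 80.1 in T407M, and at 0 to 179 TPM (median 58.9) in normal rats. Its fold change of -0.14 (SE 1.04) turned to 0.94 with limma on log2(TPM + 1), and the cause was not tested.

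The filament genes gave no common direction. Gfap had 70.5 TPM in T353M, 1.37 in T389M, 29.5 in T391M and 132 in T407M, within a normal range of 0.124 to 268.5 TPM (median 60.1). With a log2 fold change of -0.14 (SE 0.84), values from -1.18 without T407M to 0.26 without T389M were reached by leaving out 1 rat. Vim was the steadier of the pair, with 3111, 3911, 2877 and 3413 TPM in T353M, T389M, T391M and T407M. All of these were above the normal median of 2746 TPM and within the normal range of 1494 to 4852 TPM (log2 fold change 0.24, SE 0.29), but the sign turned to -0.05 against males only.

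Of the secreted members, Dkk3 had 355, 216, 520.3 and 509 TPM in T353M, T389M, T391M and T407M, all below the normal median of 603 TPM (range 153.4 to 1544; log2 fold change -0.58, SE 0.45). Clu was nearly level, with 370.1, 218, 214 and 325 TPM in the same rats and a normal median of 275.5 TPM (range 154 to 412; log2 fold change 0.08, SE 0.26). Apoe had 5202, 2900, 4810 and 5784 TPM against a normal median of 5409 TPM (range 2059 to 10990; log2 fold change -0.29, SE 0.33). The narrowest 95% interval of the 10 was that of Clu, from -0.42 to 0.58 on the log2 scale, and the widest that of Kcnj10, from -2.17 to 1.90. Differences within these intervals were not detectable with 4 rats.

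The photoreceptor genes did not pass the test either. Their log2 fold changes in the pre-dropout group were -1.17 (SE 0.84) for Sag, -0.51 (SE 0.60) for Gnat1 and -2.30 (SE 1.23) for Prph2, each with an adjusted p of 0.9999 in edgeR. The photoreceptor index, the mean log2 CPM of these 3 genes, ran from 4.53 to 6.70 in pre-dropout rats and from 2.40 to 9.88 in normal rats. Its 4 lowest values were those of the rats with 0 counts of Prph2: T420F (2.40), T448M (2.92), T447M (3.24) and T424M (3.75). There the log2 CPM of Prph2 stood at -1.21, a floor set by the prior count, while T424M had 540 counts of Sag. The low end of the index thus rests partly on this floor.

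Blood glucose was examined as a slope over all 28 rats, per 100 mg/dL and with sex as a covariate. No gene of 13800 was called (0.0%) by edgeR, 525 genes (3.8%) had an unadjusted p under 0.05, none of them a member, and DESeq2 called 22 genes, again with 0 members. Apoe had the steepest member slope by its p, -0.19 (SE 0.11, unadjusted p 0.0772), and Gfap the steepest by size, -0.36 (SE 0.29). Glul was at 0.17 (SE 0.13) and the other members lay between -0.15 and 0.08. The median slope of the members was -0.11, that of all tested genes 0.01, and 4 of 10 members lay above 0.

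The 5 rats above 200 mg/dL overlapped with the other 23 in every member. Their Apoe ran from 2900 to 6391 TPM (median 4810) and that of the other 23 rats from 2059 to 10990 TPM (median 5678). For Gfap the 5 rats lay between 1.37 and 73.7 TPM (median 34.9) and the others between 0.124 and 268.5 TPM (median 65.5). Slc1a3 ran from 9.15 TPM in T392F to 286 TPM in T370M among the 5 rats (median 151) and had a median of 130.4 TPM in the others.

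**Figure D2:**
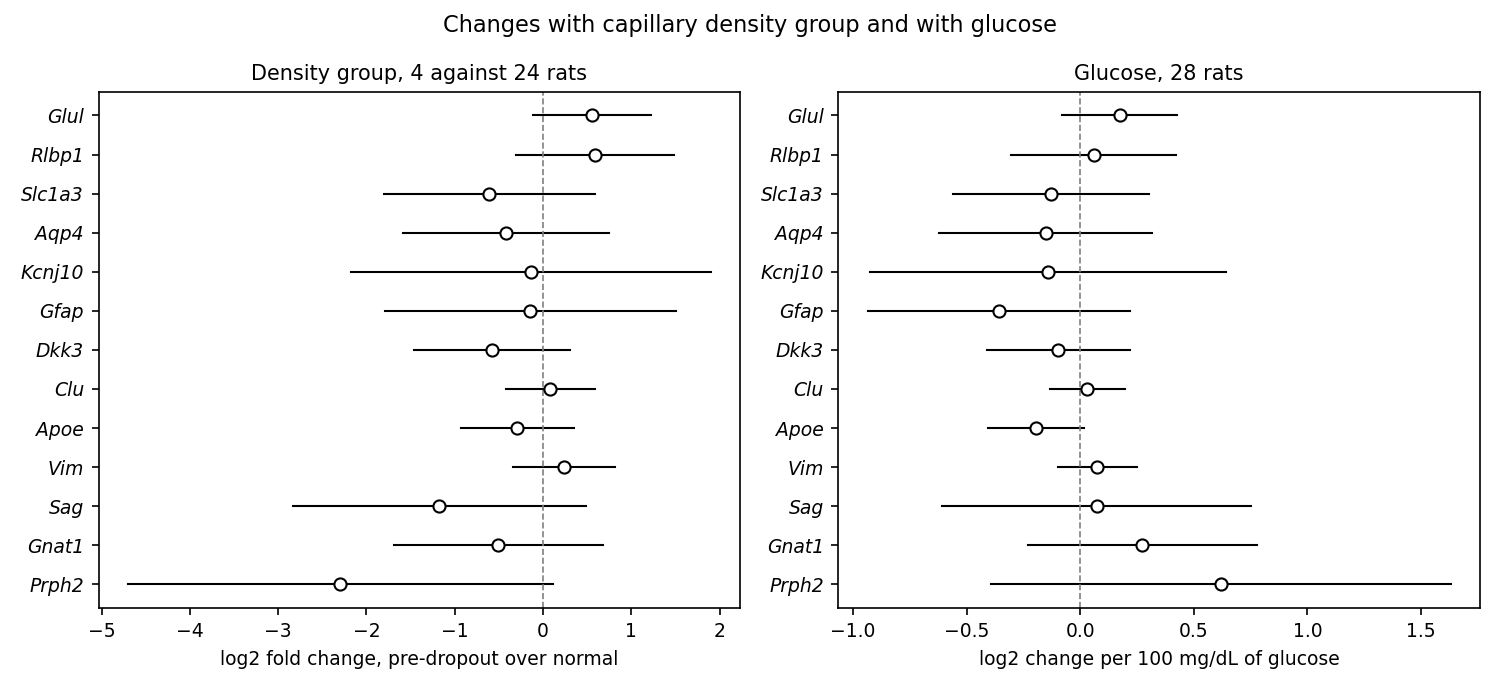
Fitted log2 change with its 95% interval for the 10 members and 3 photoreceptor genes, on the left for 4 pre-dropout against 24 normal rats and on the right per 100 mg/dL of glucose in 28 rats. All circles are open because edgeR called none of these genes, and the interval of Clu is the narrowest and that of Prph2 the widest on the left.

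The comparison with the photoreceptor genes was then made rat by rat. With the photoreceptor index 3 members rose: Dkk3 by 0.27 per log2 unit of the index (SE 0.07, adjusted p 0.0184), Glul by 0.23 (SE 0.06, adjusted p 0.0248) and Rlbp1 by 0.31 (SE 0.09, adjusted p 0.0277, edgeR). Across all genes 5.15% were called, 4.36% higher and 0.797% lower. At an unadjusted p under 0.05 there were 7 members, beside 19.6% of all genes. Of the 10 slopes 9 lay above 0, with a median of 0.25 against 0.08 over all tested genes.

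The remaining slopes did not pass. Aqp4 was at 0.27 (adjusted p 0.0678), Slc1a3 at 0.27 (0.120) and Kcnj10 at 0.27 (0.454), the last with an SE of 0.18. Apoe was at 0.14 (0.177), Gfap at 0.15 (0.713) and Clu at 0.04 (0.755), all adjusted by edgeR. Vim alone lay below 0, at -0.17 (adjusted p 0.0622). A slope of 1 would be a change in proportion to the photoreceptor genes, and the highest upper end of any member's 95% interval was 0.63, that of Kcnj10. Of 14 other photoreceptor genes tested, which the index did not use, 13 lay above 0 and 8 were called, with a median slope of 0.84.

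These calls were sensitive to single rats. Dkk3 kept its call in 25 of 28 fits that each left out 1 rat, losing it without T353M, T397F or T414F. Rlbp1 kept it in 17 and Glul in 16. Both lost it without T353M, T397F, T399F, T410F, T414F, T419F, T424M, T425M, T430F, T447M or T448M, and Glul also without T409F, while their slopes stayed between 0.27 and 0.40 for Rlbp1 and between 0.18 and 0.28 for Glul. Slc1a3 was called without T447M (slope 0.40, adjusted p 0.0260), Aqp4 without T392F (adjusted p 0.0470) and Vim in 9 fits, without T353M, T392F, T399F, T409F, T410F, T419F, T425M, T447M or T448M. Without both libraries under 1000000 counts, 1 member was called, Dkk3 (adjusted p 0.0446, edgeR). With sex as a covariate Dkk3 and Glul were called and Rlbp1 was not (slope 0.32, adjusted p 0.0502, edgeR).

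By Pearson's r over rats, 4 members passed the threshold. With the photoreceptor index, Glul had r = 0.57 (permutation p = 0.00126, adjusted p = 0.0225) and rho = 0.61 (permutation p = 0.00074), and r = 0.58 without the 2 rats farthest from the median index, T420F and T448M. Dkk3 had r = 0.55 (permutation p = 0.00208, adjusted p = 0.0281), rho = 0.65 (permutation p = 0.00029) and r = 0.56 without the same 2 rats. Rlbp1 had r = 0.54 (permutation p = 0.00315, adjusted p = 0.0334), rho = 0.58 (permutation p = 0.00161) and r = 0.53 without them. Vim had r = -0.54 (permutation p = 0.00288, adjusted p = 0.0324), rho = -0.58 (permutation p = 0.00153) and r = -0.56 without them. The other 6 had r between 0.18 (Clu) and 0.41 (Slc1a3), none past the threshold. By rank, 6 members passed, since Slc1a3 (rho = 0.58, permutation p = 0.00134, adjusted p = 0.026) and Kcnj10 (rho = 0.52, permutation p = 0.00527, adjusted p = 0.0478) joined the 4, beside 9.34% of all genes called positive and 2.17% negative by rho. Aqp4 (rho = 0.51, adjusted permutation p = 0.0519) and Apoe (rho = 0.50, adjusted permutation p = 0.0592) lay just outside, and Gfap (rho = 0.20) and Clu (rho = 0.16) farther off. Among all 13797 genes tested against the index, and over which these p-values were adjusted, 12.4% were called positive and 1.65% negative. The outcome for Slc1a3 and Aqp4 differed between the 3 index genes. Against Gnat1 alone, Slc1a3 (r = 0.51, adjusted permutation p = 0.0252) and Aqp4 (0.46, 0.0433) passed, as did Glul, Rlbp1 and Dkk3. There 27.5% of all genes were called positive. The r of Slc1a3 and Aqp4 was 0.43 and 0.39 against Sag and 0.24 and 0.18 against Prph2, none past the threshold.

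**Figure D3:**
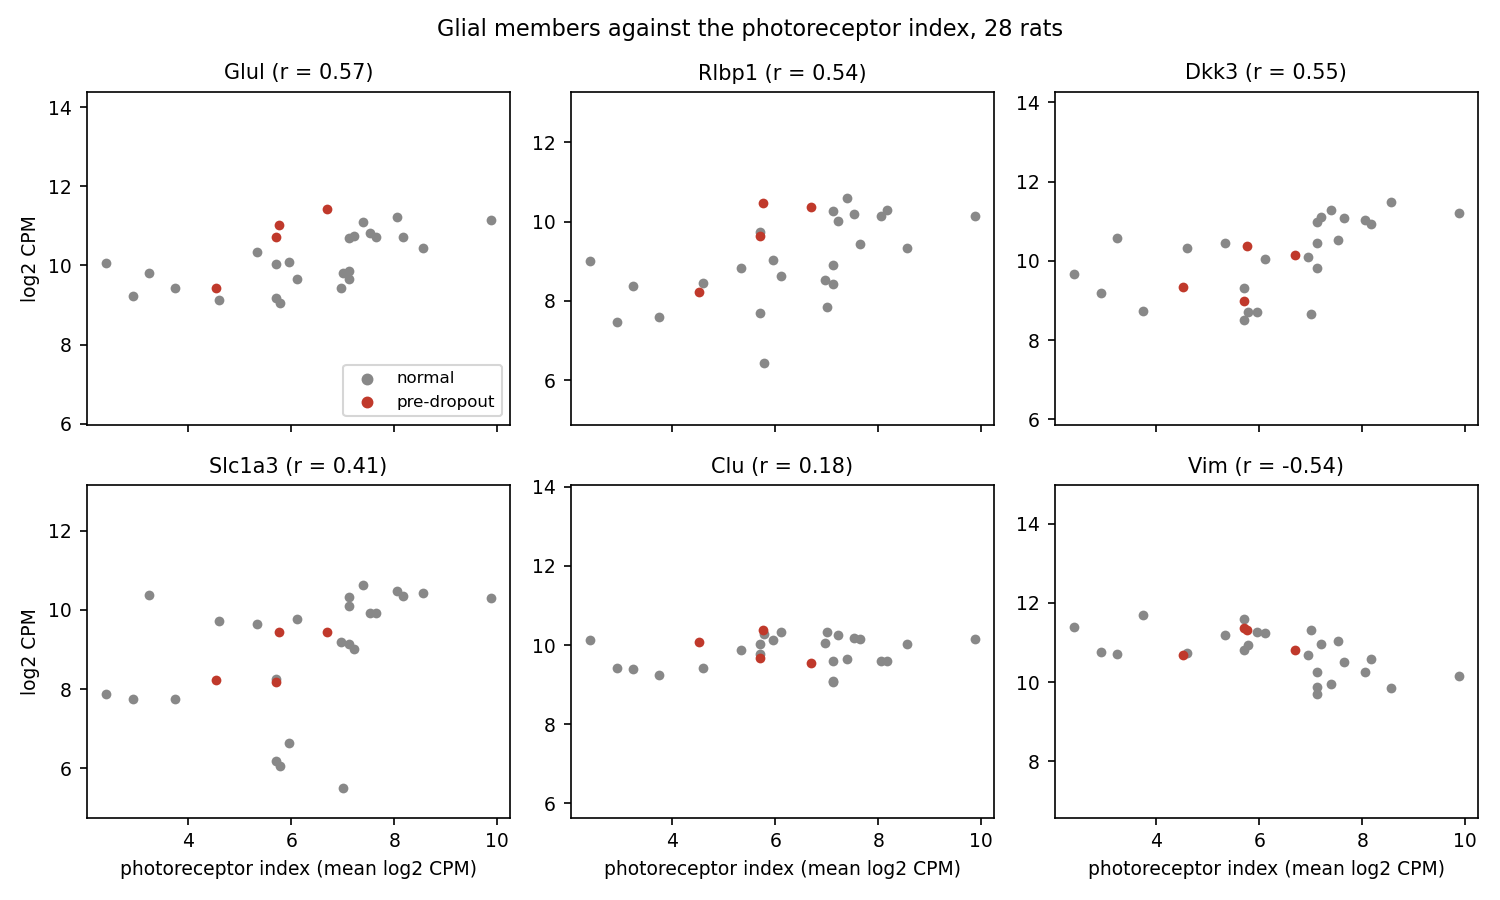
log2 CPM of 6 members (vertical axes of equal span) against the photoreceptor index in 28 rats, grey for normal and red for pre-dropout, with Pearson's r in each title. Glul, Rlbp1 and Dkk3 climb to the right, Vim falls, Clu is flat, and Slc1a3 shows a few normal rats far below the rest at a middle index.

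Single libraries show how far glial and photoreceptor RNA could part. T420F had the lowest photoreceptor index, with 3.57 TPM of Sag and 0 counts of Prph2, which allows up to 3 counts or 0.458 CPM. Its Glul was nonetheless 556 TPM, its Rlbp1 169.5 and its Aqp4 102 TPM, against medians of 594, 184 and 136 TPM over all rats. Slc1a3 and Dkk3 were lower there, at 47.3 and 342 TPM against medians of 141 and 516 TPM. T447M, also at 0 counts of Prph2 and at 35.7 TPM of Sag, had 343 TPM of Slc1a3 and 815 TPM of Dkk3, both above the series median.

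Another pattern was seen in T392F, which had 98.9 TPM of Sag and 100.1 TPM of Prph2 but the lowest Slc1a3 of all rats, 9.15 TPM, and 1 count of Kcnj10. Gnat1 was at 8.16 TPM there, below its median of 8.60, and Gfap and Clu, at 64.95 and 341 TPM, were above theirs. In T370M, at the top of the photoreceptor index with 879.9 TPM of Sag, Aqp4 reached its maximum of 573 TPM and Glul stood at 1307 TPM. In that rat glial and photoreceptor genes were high together. These rats were named after their values were seen.

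The members were also set against endothelial RNA, a comparison added after the values were seen. The endothelial index is the mean log2 CPM of Pecam1, Cdh5 and Cldn5. Per log2 unit of it, 6 members fell: Aqp4 by 1.18 (SE 0.26, adjusted p 0.00155), Slc1a3 by 1.11 (SE 0.27, 0.00441), Dkk3 by 1.04 (SE 0.18, 7.45e-05), Rlbp1 by 0.91 (SE 0.24, 0.00785), Glul by 0.63 (SE 0.18, 0.0129) and Apoe by 0.46 (SE 0.15, 0.0326) on the log2 scale, with p adjusted by edgeR. Across all tested genes 7.8% were called lower and 4.99% higher, 12.8% in all. Because levels are shares, less RNA of these members and more endothelial RNA in a library cannot be told apart. The cause was not tested.

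Vim moved with the vessels instead. It rose by 0.72 per log2 unit of the endothelial index (SE 0.11, adjusted p 2.32e-05, edgeR) and reached r = 0.83 with it (permutation p = 1e-05, the smallest that 100000 permutations can give, adjusted p = 0.000533), where 6.01% of all genes were called positive. Its rho was 0.78 (permutation p = 3e-05), and r was 0.78 without T401F and T419F. The glial label of Vim was thus not borne out by its profile in these libraries. Clu (0.20, SE 0.13, adjusted p 0.346), Gfap (-0.16, SE 0.49, 0.893) and Kcnj10 (-0.85, SE 0.57, 0.380) did not pass in edgeR.

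The photoreceptor genes fell with the endothelial index too, Gnat1 by 1.49 (SE 0.23), Sag by 1.20 (SE 0.37) and Prph2 by 1.69 (SE 0.55) on the log2 scale. The 95% intervals of Aqp4 (-1.68 to -0.67) and Slc1a3 (-1.64 to -0.58) overlapped that of Sag (-1.93 to -0.47). In all 28 fits that left out 1 rat, Rlbp1, Slc1a3, Aqp4, Dkk3 and Vim kept their call. Glul lost it without T353M, T397F, T409F, T410F, T425M or T430F, and Apoe in 14 fits, without T353M, T397F, T398F, T399F, T401F, T404F, T409F, T410F, T414F, T419F, T424M, T425M, T430F or T447M.

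The indices were themselves related, with r = -0.57 between them (permutation p = 0.00149, rho = -0.61 with permutation p = 0.00072, and r = -0.66 without T420F and T448M, n = 28). In a fit that held both, no member was called for the photoreceptor index by edgeR, 2 members had an unadjusted p under 0.05 (Glul, slope 0.16, p 0.0385, and Clu, slope 0.11, p 0.0351), beside 6.94% of all genes at that threshold, and 6 genes were called in all. For the endothelial index in the fit with both, Dkk3 (-0.86, SE 0.22, adjusted p 0.0174) and Vim (0.67, SE 0.14, adjusted p 0.00278) kept their call. Aqp4 (-1.06, adjusted p 0.0757) and Slc1a3 (-0.99, adjusted p 0.0946) did not.

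**Figure D4:**
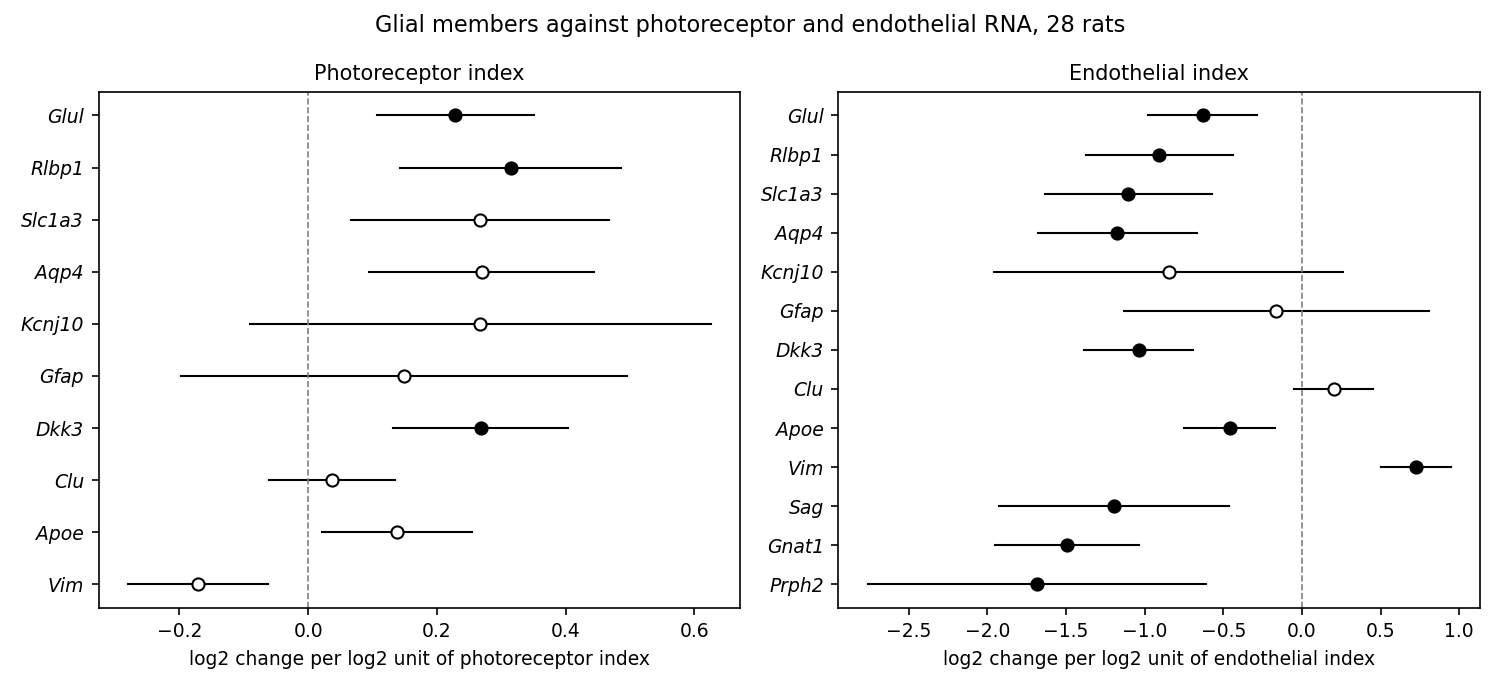
Fitted log2 change with its 95% interval per log2 unit of the photoreceptor index (left, 10 members) and of the endothelial index (right, 10 members and 3 photoreceptor genes) in 28 rats, filled where edgeR called the gene. On the left Glul, Rlbp1 and Dkk3 are filled between 0.23 and 0.31, and on the right 6 members are filled below 0 and Vim is filled at 0.72.

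Among themselves the members formed a block of 6 with Glul, Rlbp1, Kcnj10, Slc1a3, Dkk3 and Aqp4, a group chosen after the values were seen and described without a test. Their 15 pairwise r lay between 0.53 and 0.91 (median 0.66, n = 28 rats). With the 3 photoreceptor genes, their 18 r lay between 0.18 and 0.61 (median 0.42), and with the 3 endothelial genes between -0.77 and -0.23 (median -0.58). Genes of 1 library share its depth and composition, so these values are not independent.

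Inside the block the tightest pairs joined the retinoid and glutamine genes on one side and the transporter with Dkk3 on the other. Glul and Rlbp1 had r = 0.91, where 1.47% of all genes were called positive against Rlbp1 (rho = 0.91, both with permutation p = 1e-05, the smallest possible, and adjusted p = 0.0197 for r; r = 0.91 without T410F and T401F). Slc1a3 and Dkk3 also had r = 0.91, where 4.36% were called positive against Dkk3 (rho = 0.89, both with permutation p = 1e-05, adjusted p = 0.003 for r; r = 0.90 without T411M and T392F). Aqp4 joined the second pair, with r = 0.86 to Dkk3 (rho = 0.88, both with permutation p = 1e-05, adjusted p = 0.003; r = 0.83 without T411M and T392F).

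The 4 members outside the block differed from each other. Vim had r between -0.68 and -0.25 with the 6 and between 0.69 and 0.83 with the 3 endothelial genes. Gfap, Clu and Apoe had r between -0.29 and 0.62 with the 6, of which 14 of 18 were above 0. Gfap was nearest to Apoe (r = 0.62, permutation p = 0.00032, adjusted p = 0.491, rho = 0.50 with permutation p = 0.00773, and r = 0.48 without T393F and T348M). By Pearson's r, no gene of 13799 passed adjustment against Gfap, Clu or Apoe. By rank, 10 genes passed as positive and 15 as negative against Clu, and 0 against Gfap or Apoe. A single gene could not have passed alone, because 1e-05 is the smallest p before adjustment.

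**Figure D5:**
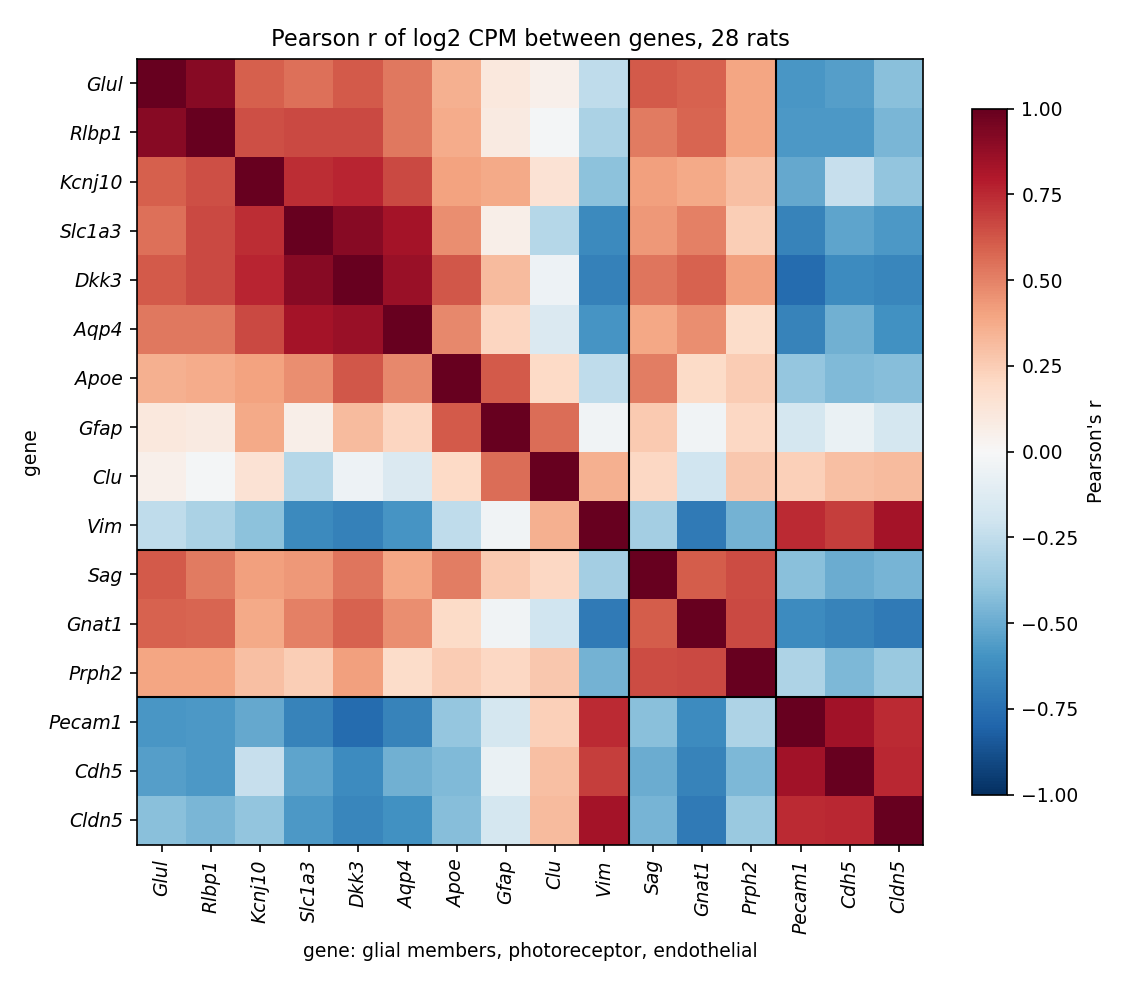
Pearson's r of log2 CPM over 28 rats between the 10 members, the 3 photoreceptor and the 3 endothelial genes, separated by black lines, from blue at -1 to red at 1. The red square of 6 genes at the upper left has r of 0.53 to 0.91, its bands to the photoreceptor genes are mostly paler, and the row of Vim is blue against the 6 and red against the endothelial genes.

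Outside the list, the genes with the most similar profiles (11138 genes with at least 1 CPM in 14 libraries were compared over 28 rats, as a description) were as follows. Glul and Rlbp1 had each other and Gsta3, a glutathione transferase (r = 0.85 and 0.93), at the top. Slc1a3 was nearest to Spon1, an extracellular matrix protein (r = 0.93), and to Gpr37 (0.93), Aqp4 to Dkk3 and Slc1a3, and Dkk3 to Slc1a3 and Spon1. Apoe was nearest to Mlc1, a membrane protein of glial endfeet (r = 0.73), and to Cst3 and A2m. Vim was nearest to Rhoa, a small GTPase of the cytoskeleton (r = 0.89), Pltp (0.88) and Tpt1 (0.88). Gfap was nearest to Scn7a (r = 0.85) and Clu to Tmbim6 (0.76).

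Other genes of the same cells were counted from fixed lists. Of 18 other Müller genes, 17 lay above 0 on the photoreceptor index and 1 was called, Tgfb2, a growth factor of the TGF-beta family (slope 0.35, SE 0.09, adjusted p 0.0169, edgeR), with a list median of 0.22, and 1 of 18 is near the 5.15% called over all genes. On the endothelial index 17 of the 18 lay below 0 and 4 were called lower, Tgfb2, Mlc1, Gpr37 and Sfxn5, with a median of -0.84. Over all genes 7.8% were called lower there. Of 11 other astrocyte genes tested from a list of 12, 8 lay above 0 on the photoreceptor index and 1 was called, Aldoc, the brain form of aldolase (0.23, SE 0.07, adjusted p 0.0492, edgeR). The share called over all genes on that index was again 5.15%.

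Genes that anchor endfeet to the vessel wall were counted next. Of 11 tested, 5 lay above 0 on the photoreceptor index with a median of -0.04 and 0 calls by edgeR, with Hepacam nearest (0.60, SE 0.19, adjusted p 0.0585). On the endothelial index 1 was called lower, Mlc1. The reactive gliosis list (14 of 18 tested) had a median of -0.06 on the photoreceptor index, with Fgf2 (1.52, SE 0.41, adjusted p 0.0238) and Cd44 (0.76, SE 0.19, adjusted p 0.0168) called higher. On the endothelial index it split, with Osmr (1.17, SE 0.21) and Steap4 (0.99, SE 0.26) called higher and Fgf2 and Cd44 called lower. Over all genes 4.36% were called higher on the photoreceptor index, and 4.99% higher and 7.8% lower on the endothelial index. Fgf2, a growth factor, had counts in 11 of 28 rats.

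With density group or glucose, edgeR called 0 genes of every list. On density group the other Müller genes had 10 of 18 above 0 (median 0.08), the astrocyte genes 3 of 11 (median -0.55), the endfoot genes 3 of 11 (median -0.22) and the gliosis genes 4 of 14 (median -0.25), beside -0.13 over all tested genes. Pax2, the transcription factor of retinal astrocytes, had the smallest p of the astrocyte list on density group. Its log2 fold change was -7.24 (SE 2.75, unadjusted p 0.0123, adjusted p 0.9999 by edgeR), with counts in 13 of 28 rats.

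Markers of other cells moved with the same indices. On the photoreceptor index 12 of 13 inner retinal neuron genes lay above 0 and 2 were called, Thy1 and Snap25, while 4 of 9 endothelial genes (Vwf, Tek, Cdh5 and Flt1) and 1 of 9 mural genes (Notch3) were called lower. Over all genes 4.36% were called higher and 0.797% lower on that index. The index of inner neurons, with which 24.8% of all genes were called positive, correlated with Slc1a3 at r = 0.70 (permutation p = 5e-05, adjusted p = 0.00109, rho = 0.71 with permutation p = 5e-05, and r = 0.66 without T420F and T411M). Dkk3 (r = 0.60, adjusted permutation p = 0.0059), Rlbp1 (0.50, 0.0285), Aqp4 (0.48, 0.0356) and Glul (0.47, 0.0454) also passed. By rank, Rlbp1 and Glul did not. Vim fell with it (r = -0.76, adjusted permutation p = 0.000661), where 5.29% of all genes were called negative. The inner neuron and photoreceptor indices had r = 0.58 (permutation p = 0.00119, rho = 0.57 with permutation p = 0.00224, and r = 0.48 without T420F and T448M). The inner neuron list summed to 113 to 1377 CPM in normal and 267 to 839 CPM in pre-dropout rats. The microglia list summed to 0 to 56.4 CPM in normal and 9.47 to 46.8 CPM in pre-dropout rats. The part of these cells in the members' relations was not tested.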

How the data were processed

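RNA of the retinal vasculature of 28 Nile rats was analysed, 1 library per rat, grouped by the acellular capillary density in the labels. The authors deposited expected counts and TPM of 18970 genes under mouse symbols. They were taken as values of CRSP, the cross-species pipeline of the authors, because of the mouse identifiers; the versions behind it are not given in the sources used here. Expected counts are unscaled estimates with fractions, deposited by the authors as read counts per gene, and the TPM deposited beside them are per transcript length. Symbols of all 10 members stand in the Nile rat annotation mArvNil1.pat.X, but the deposited counts rest on mouse identifiers, so no coordinates are given.

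Expected counts were rounded and tested in R 4.3.3 by the quasi-likelihood method of edgeR 4.0.16 (library scaling by TMM, filterByExpr with a minimum count of 10, Benjamini-Hochberg adjustment over all 13800 genes kept, common biological coefficient of variation 1.32). EBSeq, the tool of the study, was not used here. Density group had no covariate and a threshold of adjusted p 0.05 and 2-fold. Slopes were fitted on glucose (sex as covariate), on the photoreceptor index and, added after values were seen, on the endothelial index, at adjusted p 0.05. Index genes were given no call on their own index. They stayed in the adjustment of the edgeR slopes and were left out of that of the correlations. Correlations used log2 CPM with a prior count of 2 and 100000 permutations, two-sided (Python 3.11.15, NumPy 2.4.6, SciPy 1.17.1, pandas 2.3.3). Alternatives were DESeq2 1.42.0 and its size factors, limma 3.58.1 on log2(TPM + 1) and log2(TPM + 0.1), no filter, other covariates, males only, normal-density rats only, the 2 libraries under 1000000 counts left out, and single rats left out. Scripts were tested on simulated data. Intervals are 95%, and a count of 0 allows up to 3 counts, for counting error only.

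The members, gene lists and tests were chosen with earlier results of these data known. Named genes are the members, the index genes, the called genes of each list or else those with the smallest p, and the 3 most similar genes by r. Every rat is a separate animal, so p-values measure the spread between animals. Genes similar to Kcnj10 are not reported here.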

Additional observations from a re-analysis of the deposited data

Results flagged for a closer look

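In the pre-dropout group of 4 rats, 2 of 16 genes examined had a rat far from the other 3, with a gap to the nearest rat over the group's range beyond Dixon's 95% critical value. Aqp4 was at 26.6 TPM in T389M, a gap of 0.884 of the range, and Cdh5 was at 1317 TPM in T353M, a gap of 0.978. Chance alone marks about 1 in 20 groups, and the cause was not tested. T389M also had the lowest Gfap (1.37 TPM), Kcnj10 (26.3 TPM) and Dkk3 (216 TPM) of the 4 rats.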

How the results depend on the processing

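No member was called on density group or glucose under any alternative run. On density group the number of genes called was 5 with DESeq2, 72 without the filter and 4 with males only, and 22 and 152 on glucose with DESeq2 and without the filter. Kcnj10 turned to 0.94 and 1.55 on density group with limma on log2(TPM + 1) and log2(TPM + 0.1), and with the photoreceptor index as covariate it was at 0.20 and Gnat1 at 0.16. Vim turned to -0.0379 with sex as covariate and -0.0502 with males only, where Cdh5 was at -0.006813. Leaving out 1 pre-dropout rat gave ranges that crossed 0 for Gfap (-1.18 to 0.26), Kcnj10 (-0.467 to 0.0938), Clu (-0.10 to 0.20), Cdh5 (-0.0696 to 0.276) and Cldn5 (-0.24 to 0.36). On glucose, Sag turned to -0.003909 without the shallow libraries, and with the photoreceptor index as covariate Sag was at -0.27, Gnat1 at -0.0463, Rlbp1 at -0.008005 and Cdh5 at 0.0371. In normal-density rats Rlbp1 was at -0.10, Aqp4 at 0.005757, Kcnj10 at 0.007369 and Cdh5 at 0.009948.

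On the photoreceptor index 711 genes and 3 members were called. The genes were 1457 with DESeq2, 2233 without the filter, 2840 with limma, 422 without the shallow libraries, 298 with sex and 6 with the endothelial index as covariate, where Pecam1 turned to 0.0283. The members were 5 without the filter and with limma, 1 without the shallow libraries, 2 with sex (Rlbp1 lost) and 0 with the endothelial index. Leaving out 1 rat gave 385 to 867 genes, moved over 1.5 times without T397F, T414F, T420F or T424M, and 0 to 5 members, with 0 without T397F or T414F and 5 without T392F. Clu ranged from -0.008652 to 0.0656. By correlation, 2 members in place of 4 passed without the shallow libraries and without the filter. On the endothelial index, the photoreceptor index as covariate left 515 of 1764 genes called and 2 of 7 members, with Gfap at 0.10, Sag at 0.13 and Prph2 at 0.96, and Gfap ranged from -0.27 to 0.0598 with 1 rat left out. The cause of these changes was not tested.

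Limma on TPM moved the median of all genes on density group from -0.13 to 0.08 (pseudocount 1) or 0.21 (0.1) and on the photoreceptor index from 0.08 to 0.22, and DESeq2 moved it on the endothelial index from -0.21 to -0.35. No paired analysis was possible because the labels give the rats of the groups no shared replicate number. The limit that a count of 0 allows was 0.299 to 19.6 CPM by library.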

Other observations

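The receptor Kdr, listed among the endothelial genes, fell by 0.41 per log2 unit of the endothelial index (SE 0.13, adjusted p 0.0286, edgeR), while Vwf, Tek, Tie1, Flt1 and Erg were called higher. Ttr, listed with the pigment epithelium, had counts in 15 rats and a log2 fold change of 3.44 in the pre-dropout group (SE 1.35, adjusted p 0.9999). Cp, the ferroxidase ceruloplasmin from the list of other Müller genes, had the smallest p of that list on glucose, with a slope of -0.32 per 100 mg/dL (SE 0.12, unadjusted p 0.00964, adjusted p 0.992 by edgeR). The red cell genes summed to 25.4 to 4411 CPM in normal rats and 477 to 3476 CPM in pre-dropout rats.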
